A study of Mus musculus with 24 samples.

Results

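The transcripts of 10 genes that encode subunits of the AMPA and NMDA receptors were examined in the visual cortex of mice given psilocybin, light, both or neither. The genes were chosen by their symbols as the 4 AMPA receptor subunits (Gria1, Gria2, Gria3, Gria4) and 6 NMDA receptor subunits (Grin1, Grin2a, Grin2b, Grin2c, Grin2d, Grin3a). They are 10 of the 55414 genes in the count table, and 10 of 10 were among the 14464 genes with a count of at least 30 in some library that were tested. The animals were male C57BL/6J mice, 8 to 10 weeks old by one statement of the study's methods and 8 weeks old by another, kept on a reversed light cycle and used in its dark phase. The 4 groups held 6 mice each, with 1 poly-A RNA library per mouse. Dark mice received the vehicle PBS and stayed in the dark, light mice received PBS and spent 2.5 hours in light, psilocybin-dark mice received 5 mg/kg psilocybin and stayed in the dark, and psilocybin-light mice received the same dose and went into light. Group names follow the headings of the study's own count table. The sample labels give each library the same drug but the opposite light exposure, and with those labels every level below stays as it is while light and dark exchange names. The mice are numbered 1 to 6 (dark), 7 to 12 (psilocybin-dark), 13 to 18 (light) and 19 to 24 (psilocybin-light).

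AMPA and NMDA receptors are the main glutamate-gated channels of excitatory synapses. AMPA receptors are assembled from GluA subunits and carry most of the fast synaptic current, and channels that hold edited GluA2 pass little calcium. NMDA receptors hold the obligatory GluN1 subunit together with GluN2 or GluN3 subunits, need depolarisation to relieve a magnesium block, and admit calcium that drives synaptic plasticity. In the visual cortex the proportion of GluN2A to GluN2B is known to rise during development and with visual experience.

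Library totals ran from 13552516 to 17906994 counts and overlapped between groups. Levels are given as normalized counts, the raw counts scaled to a common effective library size of 16058300. The cortical glutamate transporter gene Slc17a7 was detected in every library, at a lowest level of 695 CPM (counts scaled by effective library size). Markers of other brain regions differed between libraries. The 10 cerebellar markers summed to between 34.7 and 201 CPM in 20 libraries, against 2418 CPM in dark mouse 1, 5034 CPM in dark mouse 6, 2308 CPM in psilocybin-dark mouse 12 and 1448 CPM in light mouse 18. Among them Gabra6, which defines cerebellar granule cells, was at 0 in 7 libraries. The summed hippocampal markers lay between 265 and 477 CPM in dark mice, 111 and 287 CPM in psilocybin-dark mice, 118 and 282 CPM in light mice, and 123 and 193 CPM in psilocybin-light mice. Of 8 hippocampal markers tested, 4 were lower in light than in dark mice, 2 in psilocybin-dark mice and 5 in psilocybin-light mice. Of 7 cortical glutamatergic markers 4, among them Tbr1, Rorb and Cux2, were higher than in dark mice in each of the other groups, with 811 CPM for the whole list in dark mouse 1 against 1892 to 2569 CPM in the 20 libraries without high cerebellar markers. Among the 7 GABAergic markers Vip and Lamp5 were higher and Gad2 lower in each of the other groups than in dark mice. The part of tissue makeup in the subunit results was not tested beyond the values given beside each. In tissue RNA, fewer cells of a type and less RNA per cell cannot be told apart.

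Promoter windows are shown for the 3 subunit genes called in a comparison with dark mice for which the RefSeq table (GRCm38.p6) holds an entry. These are the stretches in which sites of activity-regulated factors would be looked for. The calls of Gria4 and Grin2d were lost under alternatives given below. Each covers 250 bases before and 50 bases after the start of the gene, on the strand of the gene, with matches to 4 searched motifs in capitals. Grin1 lies at chr2:25319138-25319437, Gria4 at chr9:4796185-4796484 and Grin2d at chr7:45866632-45866931, all on the minus strand.
Grin1: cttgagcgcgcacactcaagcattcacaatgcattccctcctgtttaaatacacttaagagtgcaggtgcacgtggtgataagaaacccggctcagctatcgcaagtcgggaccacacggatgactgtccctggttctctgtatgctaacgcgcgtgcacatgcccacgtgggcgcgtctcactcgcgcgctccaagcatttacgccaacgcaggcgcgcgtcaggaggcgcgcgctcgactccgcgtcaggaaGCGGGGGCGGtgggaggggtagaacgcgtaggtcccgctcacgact
Gria4: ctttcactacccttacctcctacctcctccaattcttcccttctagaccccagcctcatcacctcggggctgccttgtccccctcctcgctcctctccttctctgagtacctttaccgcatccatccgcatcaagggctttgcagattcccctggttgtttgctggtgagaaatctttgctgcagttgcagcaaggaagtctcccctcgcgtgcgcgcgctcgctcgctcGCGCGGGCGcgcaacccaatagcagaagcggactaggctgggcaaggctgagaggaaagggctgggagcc
Grin2d: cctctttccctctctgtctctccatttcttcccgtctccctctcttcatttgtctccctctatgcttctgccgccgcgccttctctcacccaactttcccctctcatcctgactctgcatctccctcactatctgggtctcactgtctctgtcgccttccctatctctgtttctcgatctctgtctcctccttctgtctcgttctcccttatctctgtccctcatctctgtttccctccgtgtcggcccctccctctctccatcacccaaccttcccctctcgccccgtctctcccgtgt
The motifs searched on both strands were the cyclic AMP response element (TGACGTCA), an EGR site (GCGNGGGCG), an AP-1 site (TGANTCA) and the GC box (GGGCGG). Grin1 held an EGR match starting 4 bases from the start site, overlapping a GC box at base 8. Gria4 held an EGR match starting at base -20, and Grin2d held none of the 4 motifs. Of the other subunit genes with an entry, Grin2c held 3 GC boxes and Gria2 held no match. Over all 32851 promoters in the table, 1.79% held the cyclic AMP response element, 5.55% the EGR site, 7.81% the AP-1 site and 35.7% the GC box. Gria1, Gria3, Grin2a, Grin2b and Grin3a had no entry.

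The same 3 subunit transcripts passed the threshold against dark mice in light, psilocybin-dark and psilocybin-light mice, each in the same direction throughout. The 3 comparisons share the dark group, which also differed from the others in the tissue markers above. Gria1 and Grin3a were lower and Grin1 was higher. An adjusted p under 0.05 in edgeR's quasi-likelihood test, adjusted over all genes tested, was the threshold. In light against dark mice 3 of 10 subunits passed it, against 31.9% of all genes (15.4% higher and 16.5% lower). In psilocybin-dark mice 4 of 10 passed, the 3 above and Grin2d, against 24.7% of all genes (11.9% higher and 12.8% lower). In psilocybin-light mice 4 of 10 passed, the 3 above and Gria4, against 38.4% of all genes (17.4% higher and 21% lower). The subunits were thus called at a rate near that of all genes. The groups did not overlap for 2 of 10 subunits in light against dark mice, where 10% of all genes did not overlap, for 3 of 10 in psilocybin-dark against dark mice (5.58%) and for 3 of 10 in psilocybin-light against dark mice (15.8%). Without mice 1, 6, 12 and 18, a choice made after seeing the data, 6, 4 and 6 of 10 subunits passed in the light, psilocybin-dark and psilocybin-light mice, where 43.1%, 38.3% and 48.2% of all genes passed.

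**Figure D1:**
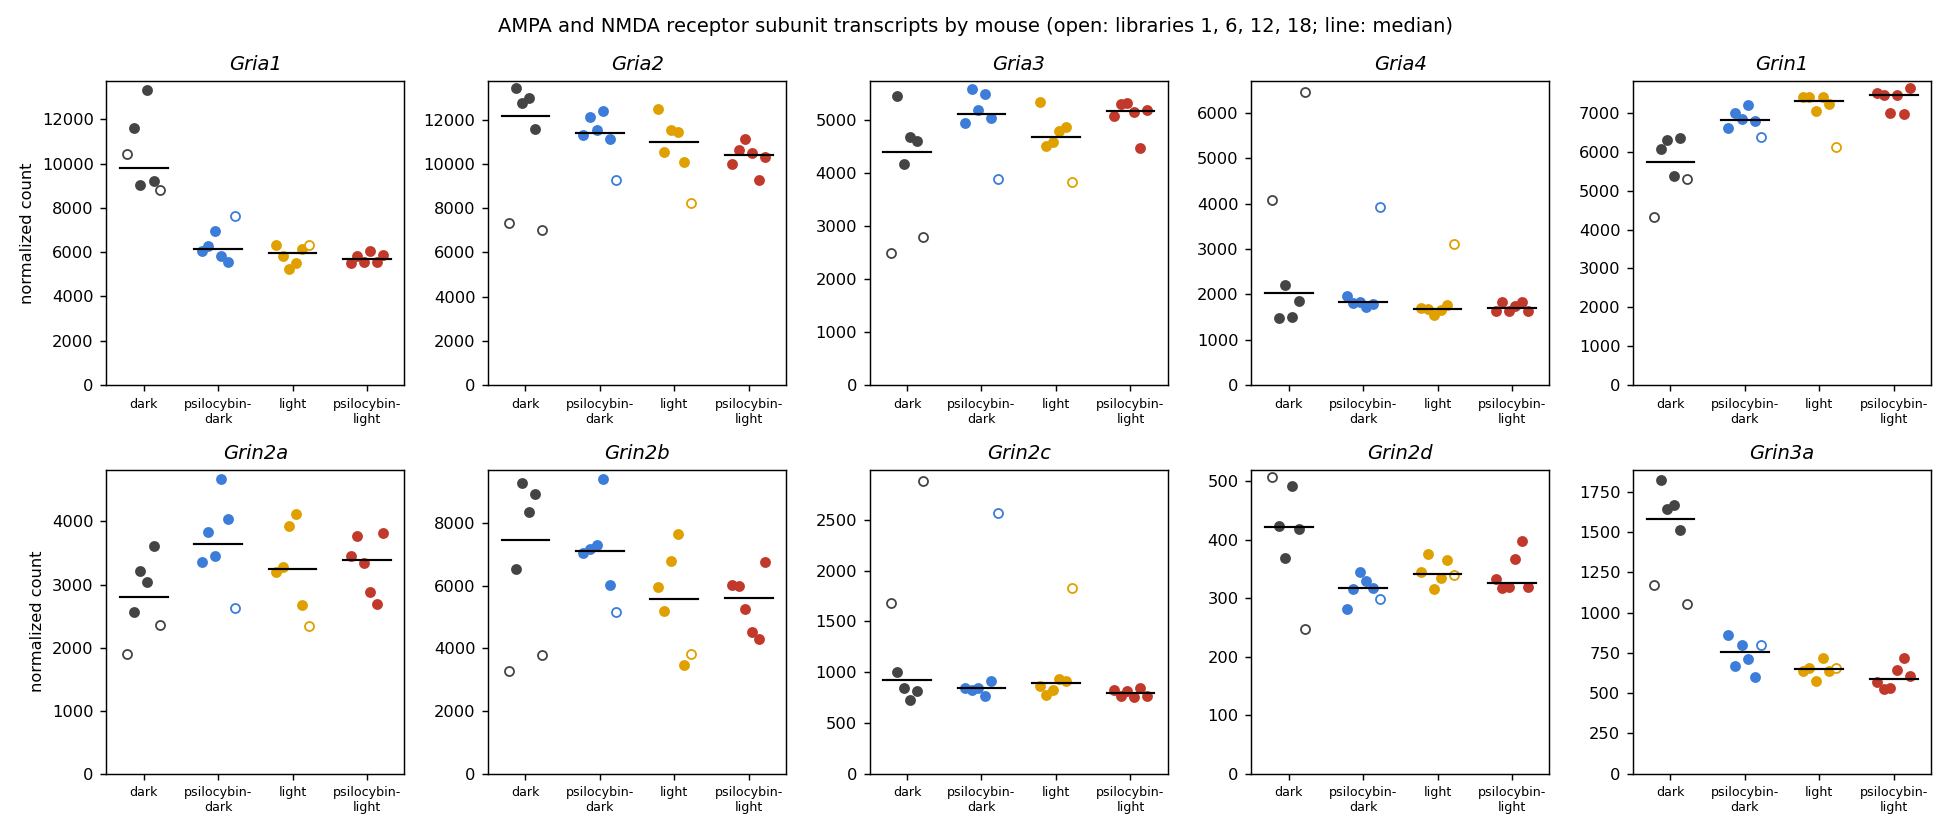
Normalized counts (vertical axis, from 0) of the 10 subunit transcripts in each mouse, by group, with a line at the group median and open circles for mice 1, 6, 12 and 18. Gria1 and Grin3a lie higher in all 6 dark mice than in any other mouse, and the open circles stand apart for Gria4 and Grin2c.

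**Figure D2:**
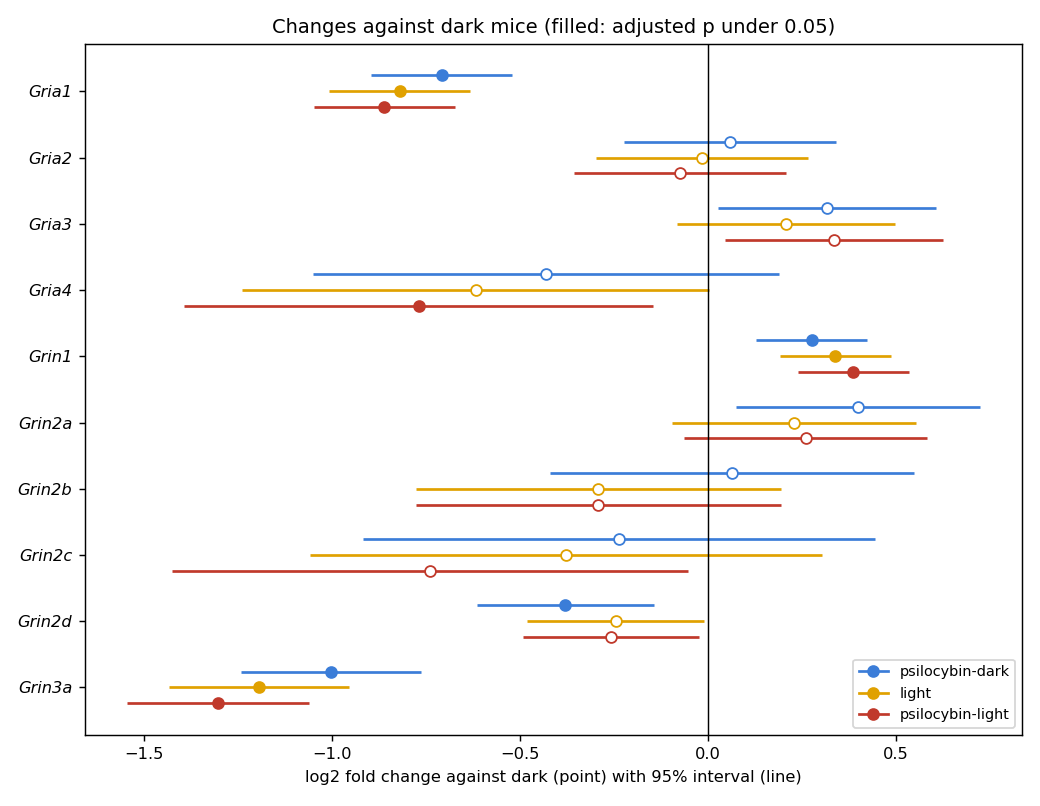
Log2 fold changes of the 10 subunit transcripts against the dark mice (horizontal axis), with 95% intervals as lines and filled points for adjusted p under 0.05. The intervals for Gria1 and Grin3a lie wholly below 0 and those for Grin1 wholly above 0 in all 3 comparisons.

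Gria1 (chr11:56902153-57221080, plus strand, GRCm39) encodes GluA1, the subunit whose delivery to synapses accompanies long-term potentiation. Normalized counts were 8810, 9824 and 13328 (lowest, median and highest) in dark mice, 5537, 6155 and 7615 in psilocybin-dark mice, 5259, 5971 and 6345 in light mice, and 5516, 5689 and 6064 in psilocybin-light mice. Every dark mouse was above every mouse of the other groups. Means were 10405 ± 1783 (SD, n = 6) in the dark and 5897 ± 440 (SD, n = 6) in the light, 0.567 times the dark level (log2 fold change -0.82, SE 0.09, edgeR adjusted p = 1.72e-06). The log2 fold change was -0.71 in psilocybin-dark mice (edgeR adjusted p = 1.52e-05) and -0.86 in psilocybin-light mice (edgeR adjusted p = 4.92e-07). The exact two-sided permutation p was 0.0022 in each comparison with dark mice, the smallest that 6 against 6 mice can give. The log2 fold changes were -0.89, -0.82 and -0.91 in light, psilocybin-dark and psilocybin-light mice when mice 1, 6, 12 and 18 were left out.

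Gria2 (chr3:80588757-80710538, minus strand), which encodes the GluA2 subunit that limits calcium entry, did not pass in any comparison. Its normalized count was 7030, 12158 and 13441 (lowest, median, highest) in dark mice and 9261, 10408 and 11127 in psilocybin-light mice. The 2 lowest dark values, 7340 and 7030, came from mice 1 and 6. The log2 fold change was -0.02 in light mice (95% interval -0.30 to 0.26), 0.06 in psilocybin-dark mice (-0.22 to 0.34) and -0.07 in psilocybin-light mice (-0.36 to 0.21). Without mice 1, 6, 12 and 18 Gria2 was lower in light mice (log2 fold change -0.18, edgeR adjusted p = 0.0235) and in psilocybin-light mice (-0.29, edgeR adjusted p = 0.000318), and its value in psilocybin-dark mice was -0.12 (edgeR adjusted p = 0.124). Its exons share 635 bases with the antisense transcript Gm66511, and the strand setting of the counting was not given in the sources used here.

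Gria3 (chrX:40489476-40767490, plus strand) encodes GluA3, which pairs with GluA2 in cortical receptors. Counts were 2490, 4395 and 5459 in dark mice, 3900, 5116 and 5588 in psilocybin-dark mice, 3842, 4693 and 5354 in light mice, and 4472, 5182 and 5326 in psilocybin-light mice. The groups overlapped throughout, and the log2 fold changes of 0.21, 0.32 and 0.34 in light, psilocybin-dark and psilocybin-light mice did not pass (edgeR adjusted p = 0.272, 0.103 and 0.0614). DESeq2 put the last at an adjusted p of 0.0464. Mice 1 and 6 were the 2 lowest dark mice for Gria3, and without mice 1, 6, 12 and 18 the 3 values were 0.03, 0.15 and 0.11.

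Gria4 (chr9:4417604-4796326, minus strand) encodes GluA4, a fast-gating subunit of interneurons that is also abundant in the cerebellum. Its normalized count was 1483, 2031 and 6460 in dark mice, 1731, 1824 and 3922 in psilocybin-dark mice, 1545, 1688 and 3110 in light mice, and 1640, 1697 and 1828 in psilocybin-light mice. The 4 highest of all 24 values belonged to the 4 mice with high cerebellar markers, at 6460 in mouse 6, 4074 in mouse 1, 3922 in mouse 12 and 3110 in mouse 18. Gria4 was called lower in psilocybin-light than in dark mice (log2 fold change -0.77, SE 0.30, edgeR adjusted p = 0.0470), with overlapping groups and an exact two-sided permutation p of 0.186. Without those 4 mice the value was -0.03 (SE 0.08, edgeR adjusted p = 0.811), and with the cerebellar markers as a covariate it was 0.16 (edgeR adjusted p = 0.421).

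Grin2c (chr11:115139992-115158525, minus strand) encodes GluN2C, the NMDA receptor subunit of cerebellar granule cells and of some forebrain glia and neurons, and it followed the same mice. The normalized count was 723, 926 and 2886 in dark mice, 765, 846 and 2563 in psilocybin-dark mice, 771, 889 and 1826 in light mice, and 755, 793 and 841 in psilocybin-light mice. The 4 highest values, 2886, 2563, 1826 and 1679, came from mice 6, 12, 18 and 1. No comparison passed, with a log2 fold change of -0.74 in psilocybin-light mice (SE 0.33, edgeR adjusted p = 0.0809), which was -0.09 (SE 0.07) without those mice.

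**Figure D3:**
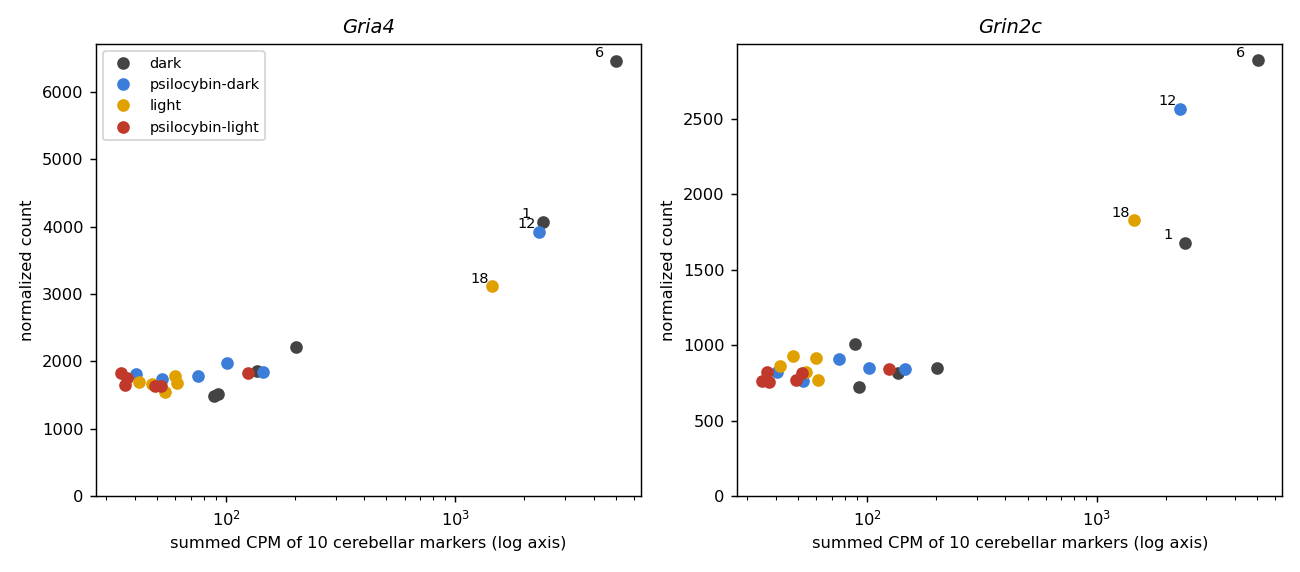
Normalized counts of Gria4 and Grin2c (vertical axes, from 0) against the summed CPM of 10 cerebellar markers (log axis) in the 24 libraries, coloured by group. Mice 1, 6, 12 and 18 lie apart to the upper right in both panels, at 1448 CPM or more, and the other 20 mice lie at or below 201 CPM.

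Grin1 (chr2:25181186-25209226, minus strand) encodes GluN1, the subunit that every NMDA receptor contains. Its normalized count was 4316, 5727 and 6363 in dark mice, 6377, 6818 and 7217 in psilocybin-dark mice, 6134, 7317 and 7423 in light mice, and 6982, 7469 and 7657 in psilocybin-light mice. All psilocybin-dark and all psilocybin-light mice were above all dark mice, while light mouse 18, at 6134, lay within the dark range. The lowest dark values, 4316 and 5294, came from mice 1 and 6. Grin1 was higher in light mice by a log2 fold change of 0.34 (SE 0.07, edgeR adjusted p = 0.000989), in psilocybin-dark mice by 0.28 (SE 0.07, edgeR adjusted p = 0.00675) and in psilocybin-light mice by 0.39 (SE 0.07, edgeR adjusted p = 0.000199). These are 1.26, 1.21 and 1.31 times the dark level. Each passed without mice 1, 6, 12 and 18 too, at 0.28, 0.19 and 0.29. The antisense transcript Grin1os shares 1307 exon bases with Grin1, and without a stated strand setting it is not known how reads over these bases were counted.

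Grin2a (chr16:9385762-9813424, minus strand) and Grin2b (chr6:135690231-136150548, minus strand) encode GluN2A and GluN2B, the principal GluN2 subunits of the cortex, and neither passed in any comparison. Grin2a had a normalized count of 1892, 2797 and 3617 in dark mice, 2622, 3643 and 4680 in psilocybin-dark mice, 2348, 3242 and 4110 in light mice, and 2693, 3395 and 3816 in psilocybin-light mice. Its log2 fold change was 0.40 in psilocybin-dark mice (95% interval 0.07 to 0.72, edgeR adjusted p = 0.0659, DESeq2 adjusted p = 0.0495). Grin2b spread widely within groups, from 3284 to 9274 in dark mice, 5151 to 9394 in psilocybin-dark mice, 3467 to 7642 in light mice and 4297 to 6752 in psilocybin-light mice. Its log2 fold change was -0.29 in both light and psilocybin-light mice, with 95% intervals of -0.78 to 0.19. The 2 lowest dark values of Grin2b, 3284 and 3800, came from mice 1 and 6. With mice 1, 6, 12 and 18 left out Grin2b was lower in light mice (-0.51, edgeR adjusted p = 0.0243) and in psilocybin-light mice (-0.59, edgeR adjusted p = 0.00684), and stood at -0.17 in psilocybin-dark mice (edgeR adjusted p = 0.480).

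Grin2d (chr7:45481304-45527802, minus strand) encodes GluN2D, a slowly deactivating subunit found in interneurons. It had the lowest counts of the 10 subunits, at 248, 421 and 506 in dark mice, 282, 317 and 345 in psilocybin-dark mice, 316, 341 and 376 in light mice, and 318, 326 and 398 in psilocybin-light mice. Dark mouse 6 was the lowest of all 24 mice and the other 5 dark mice were above all psilocybin-dark mice. Grin2d was lower in psilocybin-dark than in dark mice (log2 fold change -0.38, SE 0.11, edgeR adjusted p = 0.0179, exact two-sided permutation p = 0.0584). In light and psilocybin-light mice the values were -0.24 and -0.26 (edgeR adjusted p = 0.104 and 0.0762), and without mice 1, 6, 12 and 18 they were -0.29 and -0.31 (edgeR adjusted p = 0.00621 and 0.0029). The psilocybin-dark call was lost without dark mouse 1 (-0.31, edgeR adjusted p = 0.0512) or dark mouse 4 (-0.32, edgeR adjusted p = 0.0524). With the hippocampal markers as a covariate its value was 0.07 (edgeR adjusted p = 0.901). Its exons share 643 bases with the antisense transcript Gm45441.

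Grin3a (chr4:49661611-49845847, minus strand) encodes GluN3A, which lowers the calcium permeability of NMDA receptors and restrains the maturation of synapses, and it changed most of the 10. Its normalized count was 1055, 1579 and 1823 in dark mice, 599, 754 and 863 in psilocybin-dark mice, 574, 647 and 717 in light mice, and 526, 588 and 721 in psilocybin-light mice. As for Gria1, every dark mouse was above every other mouse, although mice 6 and 1, at 1055 and 1175, were the lowest of the dark group. Means were 1479 ± 301 (SD, n = 6) in the dark and 647 ± 46.0 (SD, n = 6) in the light, 0.437 times the dark level (log2 fold change -1.19, SE 0.12, edgeR adjusted p = 6.51e-07). The log2 fold change was -1.0 in psilocybin-dark mice (edgeR adjusted p = 1.03e-05) and -1.30 in psilocybin-light mice (edgeR adjusted p = 1.05e-07). The 3 values were -1.36, -1.20 and -1.46 without mice 1, 6, 12 and 18. Its exons share 411 bases with the antisense transcript Gm70166.

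As a list the hippocampal markers were higher in dark mice, as Gria1 and Grin3a were, but single markers differed. Of 8 tested, 4, 2 and 5 were called lower in light, psilocybin-dark and psilocybin-light mice, and 0 higher. Fibcd1, a marker of hippocampal CA1, ran from 20.0 to 298 CPM in dark mice and did not exceed 19.0 CPM in any other mouse. Trpc6 reached 9.94 CPM in dark, 11.3 CPM in psilocybin-dark and 11.0 CPM in psilocybin-light mice. The lowest Wfs1 and C1ql2 values of all mice, 67.2 and 1.08 CPM, were in dark mice. The mean log2 CPM of the 8 hippocampal markers tested was 2.38 to 3.80 in dark mice and 1.71 to 2.70 in the other mice. Dark mouse 6, at 2.38, lay inside the range of the other groups on this measure, while its Gria1 count of 8810 and its Grin3a count of 1055 were above the highest values of the other groups, 7615 and 863. This is 1 library, and the one with the highest cerebellar markers (5034 CPM). With this mean as a covariate 2 of 10 subunits passed in light mice (5.07% of all genes), 0 of 10 in psilocybin-dark mice (0% of all genes) and 2 of 10 in psilocybin-light mice (6.94% of all genes). The 2 were Gria1 (-0.50 and -0.51, edgeR adjusted p = 0.0172 and 0.0179) and Grin3a (-0.88 and -0.96, edgeR adjusted p = 0.00728 and 0.0038). In psilocybin-dark mice the covariate left Gria1 at -0.40 (edgeR adjusted p = 0.214) and Grin3a at -0.70 (edgeR adjusted p = 0.175), and edgeR gave 2 of 10 subunits and 1535 genes an unadjusted p under 0.05. Grin1 stood at 0.20, 0.14 and 0.23 with the covariate in light, psilocybin-dark and psilocybin-light mice (edgeR adjusted p = 0.336, 0.687 and 0.269). Since the covariate itself differed between dark and other mice, its effect and that of the treatments can be separated only in part.

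**Figure D4:**
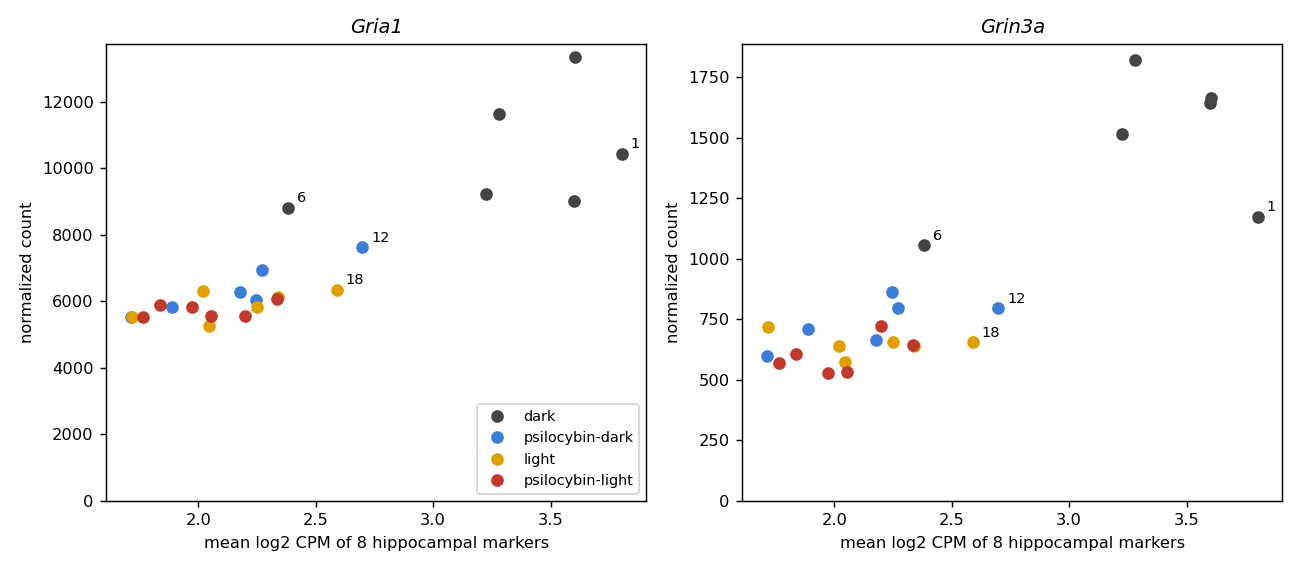
Normalized counts of Gria1 and Grin3a (vertical axes, from 0) against the mean log2 CPM of 8 hippocampal markers (horizontal axis) in the 24 libraries, coloured by group, with mice 1, 6, 12 and 18 numbered. All dark mice but 1 lie to the right of all others, and dark mouse 6 lies at 2.38 with 8810 counts of Gria1 and 1055 of Grin3a.

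No subunit passed the threshold between any pair of the 3 treated groups. Psilocybin-light against light mice gave 0 of 10 calls (0.608% of all genes), psilocybin-light against psilocybin-dark mice 0 of 10 (6.38%), and psilocybin-dark against light mice 0 of 10 (0.456%). At an unadjusted p under 0.05 edgeR gave 0, 1 and 0 subunits in these comparisons, and DESeq2 made 0 calls in each. For Gria1 the difference of psilocybin-light from light mice was -0.04 on the log2 scale (95% interval -0.23 to 0.15), for Grin3a -0.11 (-0.35 to 0.13) and for Grin1 0.05 (-0.10 to 0.20). The intervals for Gria4 and Grin2c were wide, from -0.77 to 0.47 and from -1.05 to 0.32. Grin3a, at -0.30 in psilocybin-light against psilocybin-dark mice (95% interval -0.54 to -0.06, edgeR adjusted p = 0.132), was the 1 with an unadjusted p under 0.05. Without mice 1, 6, 12 and 18 it passed at -0.27 (edgeR adjusted p = 0.0462), as did Gria2 at -0.17 (edgeR adjusted p = 0.0353).

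Whether light and psilocybin added up was tested as an interaction, the effect of psilocybin under light less its effect in the dark. Gria1 and Grin3a, 2 of 10 subunits, passed, against 8.75% of all genes. For Gria1 psilocybin mice differed from PBS mice by -0.71 in the dark and by -0.04 under light on the log2 scale. The difference between these was 0.67 (SE 0.13, edgeR adjusted p = 0.00367). For Grin3a the corresponding effects were -1.0 and -0.11, a difference of 0.89 (SE 0.16, edgeR adjusted p = 0.00305). With the groups as named here, the fall of these transcripts in psilocybin-light mice was smaller than the sum of the falls in light and psilocybin-dark mice. With the light exposure of the sample labels the interactions have the opposite sign. Both transcripts are then higher in light than in dark mice and lower in psilocybin-light than in light mice. The interaction of Grin1 was -0.23 (edgeR adjusted p = 0.158) and that of Grin2d was 0.37 (edgeR adjusted p = 0.157). Without mice 1, 6, 12 and 18 all 4 passed, at 0.81 for Gria1, 1.10 for Grin3a, -0.17 for Grin1 and 0.41 for Grin2d, where 27% of all genes passed. With the hippocampal covariate 0 of 10 subunits and 0% of all genes passed in edgeR (2 subunits and 1520 genes at an unadjusted p under 0.05), with 0.40 for Gria1 (edgeR adjusted p = 0.289) and 0.62 for Grin3a (edgeR adjusted p = 0.258).

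Ratios of subunit counts within a library do not depend on its depth. The ratio of Gria2 to Gria1 counts had a median of 1.07 in dark mice (range 0.704 to 1.41), 1.91 in psilocybin-dark mice (1.22 to 2.13), 1.90 in light mice (1.30 to 2.19) and 1.78 in psilocybin-light mice (1.67 to 2.00). On the log2 scale it was higher than in dark mice by 0.83 in light, 0.80 in psilocybin-dark and 0.82 in psilocybin-light mice (exact two-sided permutation p = 0.00433, 0.00649 and 0.00216). Adjusted over the 12 ratio comparisons made, the exact permutation p was 0.0260 in each. Without dark mouse 2 or dark mouse 4 the adjusted exact permutation p was 0.052 in each, which misses the threshold. It was the same in psilocybin-dark mice without mouse 7, 8, 9 or 10. The differences in light, psilocybin-dark and psilocybin-light mice were 0.86, 0.84 and 0.85 without mouse 2 and 0.81, 0.79 and 0.80 without mouse 4. Fewer mice also give fewer splits, which raises the smallest exact permutation p that can be reached. Dark mice 1 and 6 had the lowest Gria2 to Gria1 ratios, 0.704 and 0.798, and without mice 1, 6, 12 and 18 the 3 differences were 0.70, 0.69 and 0.60 (adjusted exact permutation p = 0.0317 in each). The ratio of Grin2a to Grin2b counts had a median of 0.398 in dark mice (0.346 to 0.621), 0.504 in psilocybin-dark mice (0.473 to 0.672), 0.598 in light mice (0.538 to 0.772) and 0.628 in psilocybin-light mice (0.565 to 0.639). Its log2 differences from dark mice, 0.47 in light, 0.26 in psilocybin-dark and 0.48 in psilocybin-light mice, did not pass after adjustment (exact permutation, adjusted p = 0.0649, 0.221 and 0.0519). Dark mice 1 and 6 had the highest Grin2a to Grin2b ratios of their group, and without mice 1, 6, 12 and 18 the 3 differences were 0.69, 0.49 and 0.70, each with an adjusted exact permutation p of 0.0317.

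**Figure D5:**
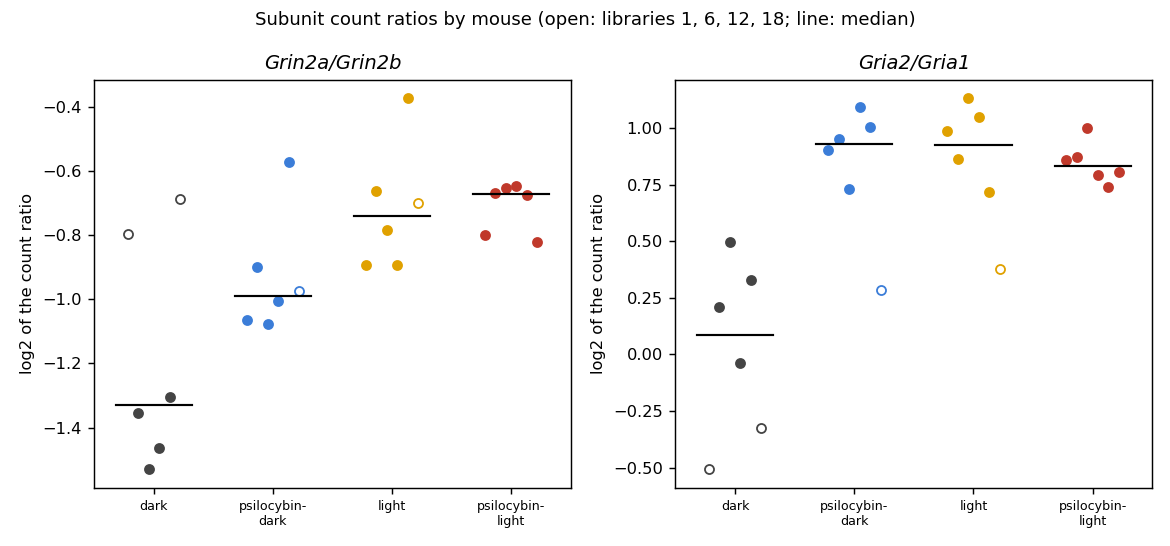
Log2 ratios of Grin2a to Grin2b counts and of Gria2 to Gria1 counts (vertical axes) in each mouse, by group, with a line at the median and open circles for mice 1, 6, 12 and 18. The 4 other dark mice have the lowest Grin2a to Grin2b ratios of all mice, and the Gria2 to Gria1 ratio has medians of 1.07 in dark and 1.78 to 1.91 in the other mice before the logarithm.

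Levels of different subunits were compared per length, as TPM (counts per base of transcript, scaled to the same sum in each library) with the length of each gene's canonical transcript. In dark mice Gria1 stood highest (346 ± 55.1 TPM, SD, n = 6), followed by Grin1 (255 ± 32.5), Gria2 (197 ± 49.3), Gria3 (142 ± 38.8) and Gria4 (103 ± 71.4). Grin2b (53.9 ± 20.4), Grin2c (49.1 ± 32), Grin3a (37.6 ± 6.98) and Grin2a (36.6 ± 7.78) came next and did not differ beyond their spread, and Grin2d was lowest (14.8 ± 3.44). These dark means include mice 1 and 6, which had high cerebellar markers. Without mice 1 and 6 the mean normalized count in dark mice went from 2932 to 1764 for Gria4 and from 1326 to 848 for Grin2c. That of Grin2b went from 6698 to 8276, so the order in dark mice also depends on mice 1 and 6. In psilocybin-light mice Grin1 stood highest (317 ± 10.9 TPM, SD, n = 6), while Gria1 (181 ± 9.52), Gria2 (179 ± 12.4) and Gria3 (171 ± 11.0) lay within their spread of each other at this length. With the length of all exons of a gene in place of the canonical transcript, Gria1 (220 TPM) and Grin1 (209 TPM) changed places in psilocybin-light mice, where Gria1 then stood above Gria2 (118 TPM) and Gria3 (126 TPM). In dark mice that length put Grin2b (87.3 TPM) above Gria4 (54.9 TPM), so the order of these genes depends on the length used. The summed TPM of the 4 AMPA receptor subunits was 789 ± 64.6 in dark, 670 ± 33.6 in psilocybin-dark, 601 ± 38.6 in light and 588 ± 29.9 in psilocybin-light mice (SD, n = 6), and that of the 6 NMDA receptor subunits was 448 ± 44.0, 484 ± 21.7, 459 ± 28.2 and 455 ± 14.5. Gria1 made up 43.8% ± 4.48 of the AMPA receptor sum in dark mice and 30.9% ± 1.07 in psilocybin-light mice, and Gria3 made up 17.9% ± 4.18 and 29.1% ± 0.89 (SD, n = 6). Within the dark group the share of Gria3 ran from 12.4% to 22.0% and that of Gria4 from 5.84% to 30.1%. Mice 1 and 6 had the lowest Gria3 and the highest Gria4 counts of that group. Sums and shares are given here with all mice. Grin3b, the remaining NMDA receptor subunit gene, did not exceed 12.5 normalized counts in any mouse and was not tested.

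Genes that act with the subunits were counted in 3 lists. Among 17 auxiliary and assembly factors of AMPA receptors, light mice had 2 higher and 5 lower, psilocybin-dark mice had 3 in each direction, and psilocybin-light mice had 3 higher and 5 lower. These 7, 6 and 8 of 17 stand beside 31.9%, 24.7% and 38.4% of all genes. The median log2 fold changes of the list were -0.09, -0.17 and -0.11, beside -0.01, -0.02 and -0.02 over all genes tested. Shisa6, an AMPA receptor-binding membrane protein, had a normalized count of 712, 1088 and 2457 (lowest, median, highest) in dark mice and of 209, 239 and 305 in psilocybin-light mice. Its log2 fold change was -2.08 in light, -1.66 in psilocybin-dark and -2.48 in psilocybin-light mice (edgeR adjusted p = 0.00103, 0.00716 and 0.000166). The highest psilocybin-dark and light values, 1224 and 758, reached into the dark range and stood far above their group medians of 246 and 248. Shisa9 and Cacng4, which also encode auxiliary subunits, were lower in all 3 comparisons, with log2 fold changes from -0.69 to -0.49 and from -0.69 to -0.44. Cnih3, a cornichon that aids AMPA receptor export, and Cacng5 were lower in light (-0.52 and -1.37) and psilocybin-light mice (-0.50 and -1.53). Cacng5 did not pass in psilocybin-light mice without mice 1, 6, 12 and 18 (-0.50, edgeR adjusted p = 0.0914). Cacng3, which encodes a transmembrane AMPA receptor regulatory protein, was higher by 0.76, 0.77 and 0.78 (edgeR adjusted p = 0.00418, 0.00512 and 0.0027) in light, psilocybin-dark and psilocybin-light mice. The others called higher were Abhd6 in light and psilocybin-light mice (0.21 and 0.20), Cacng2 in psilocybin-dark mice (0.53) and Gsg1l in psilocybin-dark and psilocybin-light mice (0.55 and 0.65). Abhd6 did not pass without mice 1, 6, 12 and 18 (0.14 and 0.12, edgeR adjusted p = 0.0526 and 0.063). Without those mice 4 of the 17 were higher and 9 lower in light, 5 and 9 in psilocybin-dark, and 5 and 7 in psilocybin-light mice, where 43.1%, 38.3% and 48.2% of all genes passed, and with the hippocampal covariate edgeR called 0, 0 and 1.

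Among 13 trafficking and anchoring genes, light mice had 2 higher and 2 lower, psilocybin-dark mice had 3 higher against 1 lower, and psilocybin-light mice had 2 in each direction, with median log2 fold changes of 0.09, 0.13 and 0.09. These are 4 of 13 in each comparison, beside the same 31.9%, 24.7% and 38.4% of all genes. Grip2, which encodes a PDZ scaffold that binds GluA2, had normalized counts of 196 to 335 in dark mice and of 336 to 454, 376 to 475 and 405 to 499 in psilocybin-dark, light and psilocybin-light mice, without overlap with the dark group. Its log2 fold changes were 0.58, 0.70 and 0.77 in that order. Dlg1, which encodes the GluA1-binding scaffold SAP97, was higher by 0.38, 0.50 and 0.38 in light, psilocybin-dark and psilocybin-light mice, and Dlg2 by 0.21 in psilocybin-dark mice. Nsf, the ATPase that binds GluA2, was lower by 0.29, 0.22 and 0.21 on the log2 scale, and Grip1 was lower in light (-0.45) and psilocybin-light mice (-0.36). The interaction passed for Dlg1 (-0.50, edgeR adjusted p = 0.0213) and Grip2 (-0.51, edgeR adjusted p = 0.0350). Without mice 1, 6, 12 and 18 the calls were 4 higher and 3 lower, 5 and 3, and 4 and 3, and with the hippocampal covariate 1, 0 and 1 gene passed in edgeR.

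Among 7 genes of the other ionotropic glutamate receptors 0 were higher, and 2, 2 and 3 were lower in light, psilocybin-dark and psilocybin-light mice, with median log2 fold changes of -0.27, -0.16 and -0.13, where 16.5%, 12.8% and 21% of all genes were lower. Grik1 and Grik2, which encode kainate receptor subunits, were lower in all 3 comparisons, Grik1 by -0.72, -0.53 and -0.72 and Grik2 by -0.38, -0.33 and -0.44, and their interactions were 0.53 and 0.27 (edgeR adjusted p = 0.0444 and 0.0490). With the hippocampal covariate both passed in light and psilocybin-light mice, neither passed in psilocybin-dark mice (Grik1 -0.44 and Grik2 -0.31, edgeR adjusted p = 0.355 and 0.237), and neither interaction passed (edgeR adjusted p = 0.428 and 0.407).

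For each subunit called in a comparison with dark mice, the 3 tested genes with the most similar log2 CPM over the 24 libraries were found by Pearson's r. The 24 libraries share the group structure and the marker differences above, so r describes likeness in these libraries. Gria1 was most like Dgkg, Doc2b and Blcap (each r = 0.97), and around the group means their r fell to between 0.80 and 0.82. Grin3a was most like Gpc4, Sdc3 and Hs6st2 (each r = 0.95), with 0.67 to 0.84 around the group means. Grin1 was most like Emx1, Slc8a2 and Phf24 (r = 0.97, 0.97 and 0.96), Gria4 like Washc2, Icmt and Asph (each r = 0.98), and Grin2d like Kcng2, Ahi1 and Tmem130 (r = 0.91, 0.91 and 0.90). Around the group means these stayed at 0.94 to 0.95 for Grin1, 0.97 to 0.98 for Gria4 and 0.89 to 0.93 for Grin2d. Those likenesses thus hold between libraries within groups.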

How the data were processed

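Poly-A RNA of the visual cortex was sequenced from 24 male mice. The authors trimmed reads with cutadapt, mapped them with STAR to GRCm39 (the submitters' processing notes name mm10) and used htseq-count to count reads for each Ensembl gene. The values the authors deposited are raw counts for 55414 genes, and versions and strand setting are not given in the sources used here. Positions of genes come from the GRCm39 annotation and promoters from RefSeq (GRCm38.p6).

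In R 4.3.3, the 14464 genes that reached a count of 30 in some library entered an edgeR 4.0.16 quasi-likelihood fit with TMM scaling and 1 term per group over all 24 libraries. Normalized counts were scaled to the mean effective size, 16058300. P-values were two-sided and Benjamini-Hochberg adjusted over all genes tested, with a threshold of 0.05. A check on simulated data for the light comparison called 192 of 200 changed genes, and 11 others, among 14198. Ratios were compared by exact permutation over 924 splits with scipy 1.17.1. Alternatives were DESeq2 1.42.0, its size factors, other filters, only the compared groups, libraries left out, marker covariates and the light exposure of the sample labels. Named genes were the 10 subunits, every partner past the threshold against dark mice or in the interaction, and the 3 most alike genes. Some of the listed genes are not reported here by name. Members and lists were chosen with earlier results of these data known. The 60 pairs of libraries within groups all differed beyond counting error (chi-square per degree of freedom at least 3.11). Each library is 1 mouse, the precision rests on the spread over 6 mice per group, and intervals of fold changes are 95% intervals of the fit. Gene lengths were used only for TPM.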

Additional observations from a re-analysis of the deposited data

Results flagged for a closer look

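In 7 of 40 combinations of a subunit and a group there was a mouse that stood apart from the other 5, by a gap to its nearest neighbour that took a share of the group's range above Dixon's 95% critical value for 6, where chance gives about 1 in 20. The 40 combinations are not independent, since the same mice recur across subunits. No combination in dark mice was flagged. The rule looks for a single mouse, so dark mice 1 and 6 can mask each other. Their Gria4 counts were 4074 and 6460, against at most 2207 in the other dark mice. Psilocybin-dark mouse 12 stood apart as the highest for Gria4 (gap 0.841 of the range) and Grin2c (0.858) and as the lowest for Gria3 (0.666). Light mouse 18 stood apart as the highest for Gria4 (0.8) and Grin2c (0.784) and as the lowest for Grin1 (0.724). Both mice carry high cerebellar markers, at 2308 and 1448 CPM. Psilocybin-light mouse 23 stood apart as the lowest for Gria3 (0.742), with 124 CPM of cerebellar markers, the highest of its group. The part of these markers in the gaps was not tested.

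The effect of psilocybin differed between light and dark for 2 subunits by the interaction test in edgeR, with a log2 difference of 0.6671 for Gria1 and 0.8921 for Grin3a.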

How the results depend on the processing

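Over 10 subunits and 7 comparisons, the 70 log2 fold changes kept their side of the threshold with DESeq2 size factors in place of TMM for 70 of 70, with DESeq2 for 68, with another or no low-count filter for 69 each, and direction was read only for values past the threshold in either fit. Gria1, Grin3a and Grin1 passed against dark mice in all 24 fits that left out 1 mouse each. Gria4 in psilocybin-light mice passed in 6 of those 24, with values from -0.90 to -0.37, and missed with edgeR's own filter (adjusted p = 0.0504). Leaving out 1 mouse gave 3 to 4 calls in light, 3 to 6 in psilocybin-dark, 3 to 6 in psilocybin-light and 2 to 3 for the interaction. The light comparison gave 6 calls without mice 1 and 6, 6 without mice 1, 6, 12 and 18, and 5 with the cerebellar covariate. Psilocybin-light against psilocybin-dark mice gave 1, 2 and 2 in that order, and the interaction 4 without the 4 mice. The fits without the 4 mice and with the cerebellar covariate were added after seeing the data. The fit without mice 1 and 6 was listed beforehand, but with earlier results of these data known. No sample label sets mice 1 and 6 apart, so leaving them out is also a choice drawn from the data. The hippocampal covariate gave 0 calls in psilocybin-dark mice, 2 in psilocybin-light mice and 0 for the interaction. With the light exposure of the sample labels, the comparisons of psilocybin-dark and psilocybin-light with dark mice gave 0 calls each, and psilocybin-light and psilocybin-dark against light mice gave 4 each, since the group labelled light then holds mice 1 to 6. With those labels light against dark, psilocybin-light against psilocybin-dark and the interaction also take the opposite sign for every gene. Apart from that, among values past the threshold in either fit, Grin2d in psilocybin-dark mice changed sign with the hippocampal covariate (0.0685). Gria4 in psilocybin-light mice did so with the cerebellar covariate (0.1582). Values past the threshold in neither fit were not read for direction. The Grin2a to Grin2b differences without mice 1 and 6 were 0.6940 in light, 0.4791 in psilocybin-dark and 0.7016 in psilocybin-light against dark mice and 0.2225 in psilocybin-light against psilocybin-dark mice, each past the threshold, and without mice 1, 6, 12 and 18 the first 3 were 0.6903, 0.4874 and 0.7016. Leaving out 1 mouse moved them from 0.4015 to 0.5706, from 0.4099 to 0.5782 (light and psilocybin-light against dark), from 0.1934 to 0.2944 (psilocybin-light against psilocybin-dark) and from -0.2868 to -0.1460 (psilocybin-dark against light). The Gria2 to Gria1 differences ran from 0.7199 to 0.9222 in light, 0.6949 to 0.9105 in psilocybin-dark and 0.7109 to 0.9119 in psilocybin-light mice, and lost their call at an adjusted exact permutation p of 0.05195 without dark mouse 2 or 4, and in psilocybin-dark mice also without mouse 7, 8, 9 or 10. The cause of these changes was not tested. No paired analysis was possible because each mouse has a number of its own. With 6 mice a group, differences smaller than the intervals given could not be detected.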
